A study of Mus musculus with 12 samples.

Results

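Neat1 and Malat1 are 2 neighbouring genes for long nuclear RNAs on mouse chromosome 19, and the values given here are their RNA levels in mESCs and NIH3T3 cells and every ChIP-seq peak around them. The genes were taken by name, as 2 of the 54446 genes in the RNA-seq tables, with 9 of their 137767 transcripts. The peaks are all 92 of 128567 that lie between 5.78 and 5.87 Mb of chromosome 19 (mm10) in 7 peak lists. The pair was picked on its TPM and on the place and height of its peaks in these same libraries, so the values are a description and carry no test.

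The study compared the binding of Ctr9, a core subunit of the Paf1 complex (Paf1C), between mESCs and NIH3T3 fibroblasts. mESCs were of the E14 line, and both cell types were grown in the same GMEM medium with serum and LIF. Ctr9 carried GFP at its C-terminus in both, and each line was a sorted pool of GFP-positive cells rather than a clone. NELFA was GFP-tagged in a separate mESC line, and RNAPII Ser5p was profiled in those NELFA-tagged cells. Peak lists for Ctr9 and H3K27ac come from both cell types, and those for NELFA, RNAPII Ser5p and RNAPII Ser2p from mESCs. RNA-seq was made from E14 mESCs and from NIH3T3 cells, for which the labels name no tag. Every group was 1 library, no value has a replicate, and the 95% intervals given cover counting error only.

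Neat1 RNA comes in a short and a long form that begin at the same start. The long form is the scaffold of paraspeckles, nuclear bodies that hold RNA-binding proteins, and the short form ends early at a polyadenylation site. Malat1 RNA gathers in nuclear speckles, which are rich in splicing factors. The 3′ ends of Malat1 and of long Neat1 are known to be made by RNase P, which cuts in front of a tRNA-like small RNA, and the new end is held in a triple helix of U-rich and A-rich stretches. Paf1C travels with elongating RNAPII, NELF holds paused RNAPII near the start, Ser5p marks early and Ser2p elongating RNAPII, and H3K27ac marks active promoters and enhancers.

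In GENCODE M21, Neat1 (ENSMUSG00000092274) spans chr19:5824708-5845478 on the minus strand, 20771 bases, and Malat1 (ENSMUSG00000092341) spans chr19:5795690-5802672 on the same strand, 6983 bases. Transcription runs from Neat1 towards Malat1, and 22035 bases lie between them. The long transcript Neat1-201 is a single exon over the whole gene, and the short Neat1-202 covers its first 3172 bases and is 3004 bases long in 2 exons. The remaining 17599 bases belong to the long form only.

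The 3′ ends of both genes are shown because of the strongest Ctr9 peak of each cell type with its summit away from a start. That summit lay at or just past an end, of Malat1 in mESCs and of Neat1 in NIH3T3 cells. Each sequence, from the GRCm38.p6 genome and read 5′ to 3′ along the RNA, holds 120 bases of the gene followed by its small RNA. For Malat1 (chr19:5795924-5796101, minus strand) that is the RefSeq mascRNA of 58 bases, and for Neat1 (chr19:5824652-5824827, minus strand) it is Gm27702 of 56 bases. The annotated Malat1 end lies 234 bases past the last base of mascRNA, and the annotated Neat1 end directly before Gm27702. The mESC Ctr9 summit lay 962 bases past the first base of mascRNA, outside the printed sequence. Capitals mark stretches of at least 8 bases that both ends share.
Malat1 end: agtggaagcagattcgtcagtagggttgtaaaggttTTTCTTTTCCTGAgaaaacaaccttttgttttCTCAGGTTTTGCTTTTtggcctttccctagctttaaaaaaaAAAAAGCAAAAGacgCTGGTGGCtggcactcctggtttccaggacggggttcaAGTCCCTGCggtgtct
Neat1 end: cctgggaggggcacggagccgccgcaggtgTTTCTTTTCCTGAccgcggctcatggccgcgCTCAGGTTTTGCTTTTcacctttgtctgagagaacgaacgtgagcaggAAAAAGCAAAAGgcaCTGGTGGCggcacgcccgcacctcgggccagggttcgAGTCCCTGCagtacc
The ends shared 5 such stretches in the same order. Of these, TTTCTTTTCCTGA and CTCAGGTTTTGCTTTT are the U-rich pair, AAAAAGCAAAAG is the A-rich stretch, and CTGGTGGC and AGTCCCTGC lie in the small RNAs. The small RNAs themselves were identical at 40 of 58 aligned positions, 69.0%.

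The Malat1 promoter is shown because it was covered by peaks of 5 of the 7 lists and held the strongest NELFA summit of the locus. It is the RefSeq window from 250 bases before to 50 bases after the start (chr19:5802623-5802922, minus strand), with the transcribed bases in capitals. Of both genes, RefSeq's promoter table held Malat1 only.
Malat1 promoter: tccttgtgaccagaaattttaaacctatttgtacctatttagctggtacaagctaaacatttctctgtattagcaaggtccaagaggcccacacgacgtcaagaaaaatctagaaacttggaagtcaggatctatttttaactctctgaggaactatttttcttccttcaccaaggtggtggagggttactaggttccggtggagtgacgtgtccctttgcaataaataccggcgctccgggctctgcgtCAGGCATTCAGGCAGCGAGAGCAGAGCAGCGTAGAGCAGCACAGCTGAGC
A search of both strands of this window found none of the 9 motifs spelled out next, nor 2 longer spaced patterns. Over 32851 RefSeq promoters of the same length, the shares with a match were 13.6% for TATAAA, 37.4% for CCAAT, 35.7% for GGGCGG, 7.15% for CACGTG and 1.79% for TGACGTCA. They were 1.74% for ATTTGCAT, 1.15% for TTCCNGGAA, 7.81% for TGANTCA and 7.86% for GAANNTTC.

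The last sequence is the place between the genes where summits of most lists came together. Over 218 bases (chr19:5809901-5810118, minus strand), 6 of the 7 lists had a summit, and only RNAPII Ser2p did not. The NELFA peak there was weak, with a −log10 q of 2.94, and with a limit of 5 it was lost. Each capital marks the base of 1 summit.
Intergenic site: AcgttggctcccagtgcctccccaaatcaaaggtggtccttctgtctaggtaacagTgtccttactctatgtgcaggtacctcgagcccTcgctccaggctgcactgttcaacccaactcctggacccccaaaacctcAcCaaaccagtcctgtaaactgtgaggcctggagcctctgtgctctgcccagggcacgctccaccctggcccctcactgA

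Both RNAs were present in both cell types, and both had their higher level in NIH3T3 cells with the larger ratio for Malat1. Taking the highest transcript as the level of a gene, in transcripts per 1000000 (TPM), Malat1 was listed at 24.5 in mESCs and 112 in NIH3T3 cells, a ratio of 4.59 (95% interval 4.42 to 4.76). Neat1 was at 42.7 in mESCs and 58.1 in NIH3T3 cells, a ratio of 1.36 (1.30 to 1.43). Malat1 was past 2-fold and Neat1 was not. Of 14691 genes with a TPM of at least 1 in either library, 20.6% were past 2-fold with the higher level in NIH3T3 cells, on the scale of TPM plus 1.

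The order of the pair turned between the libraries. On TPM of the highest transcript, which is per length, Neat1 stood at 1.74 times the Malat1 level in mESCs and at 0.517 times in NIH3T3 cells. With the TPM of all transcripts summed, Malat1 was above Neat1 in both libraries, at a Neat1 to Malat1 ratio of 0.885 in mESCs and 0.241 in NIH3T3 cells, so the order in mESCs rests on how the gene level is taken. Among the 14691 genes, Malat1 stood at rank 3979 in mESCs and 865 in NIH3T3 cells by TPM of the highest transcript, and Neat1 at 2443 and 1666. By summed estimated counts, which favour long transcripts, the ranks were 1735 and 217 for Malat1 and 1813 and 878 for Neat1, with Malat1 ahead in both libraries. In a bulk sample, fewer cells with a transcript and less of it per cell cannot be told apart.

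The ratio of Neat1 differed between its forms. The short Neat1-202 held most of the gene's level in both libraries, with 87.9% of its TPM in mESCs and 93.3% in NIH3T3 cells. The long Neat1-201, the paraspeckle scaffold, had a TPM of 0.929 in mESCs against 3.84 in NIH3T3 cells, a ratio of 4.13 (3.72 to 4.60). Its interval lies above that of the short form and overlaps that of Malat1. The short form exceeded the long one 46.0 times in mESCs and 15.2 times in NIH3T3 cells, on TPM. The 3′ ends of long Neat1 and of Malat1 carry no poly(A) tail, and whether the libraries were selected for poly(A) is not stated, so these ratios between forms and the Malat1 levels are those of the library and may not be those of the cell.

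By reads the long form took a larger part of the gene, since it has more sequence to draw them from. Neat1-201 had 425 estimated counts in mESCs (95% Poisson interval 386 to 467) and 1894 in NIH3T3 cells (1810 to 1981). That was 12.5% of the gene's counts in mESCs and 31.1% in NIH3T3 cells. Neat1-202 had 2864 (2760 to 2971) and 4198 (4072 to 4327). Per kb of transcript, the long form drew 20.5 estimated counts in mESCs against 91.2 in NIH3T3 cells, and the short form 953 and 1397.

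Of the 2 minor transcripts, Neat1-203, of 1030 bases in 4 exons, went the other way, with a TPM of 4.92 from 106 estimated counts in mESCs and 0.214 from 4.97 in NIH3T3 cells. Neat1-204 was listed at 0 in mESCs and at 0.154, from 2.08 estimated counts, in NIH3T3 cells. All of these overlap the long transcript, so the split of reads between them is kallisto's estimate.

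All Malat1 transcripts had their higher value in NIH3T3 cells. Malat1-201, the unspliced full-length RNA, held 93.9% of the gene's estimated counts in mESCs and 94.2% in NIH3T3 cells, with 3315 and 16532 counts. The 4 short transcripts, 485 to 656 bases long, took a larger part of TPM than of counts, since TPM divides by length. Among those above 0 in both, Malat1-203 had the largest ratio, 8.40 (5.83 to 12.5), at 7.28 in mESCs and 61.1 in NIH3T3 cells. Malat1-204 had the smallest, 3.04 (2.55 to 3.66), at 18.9 and 57.6. Malat1-202 was at 4.18 in mESCs against 26.0 in NIH3T3 cells, and Malat1-205 was listed at 0 and at 1.65. Counts over the whole gene were 3533 and 17556, a ratio of 4.97 (4.79 to 5.15), and for Neat1 3395 and 6100, a ratio of 1.80 (1.72 to 1.87), before any allowance for the larger NIH3T3 library.

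**Figure D1:**
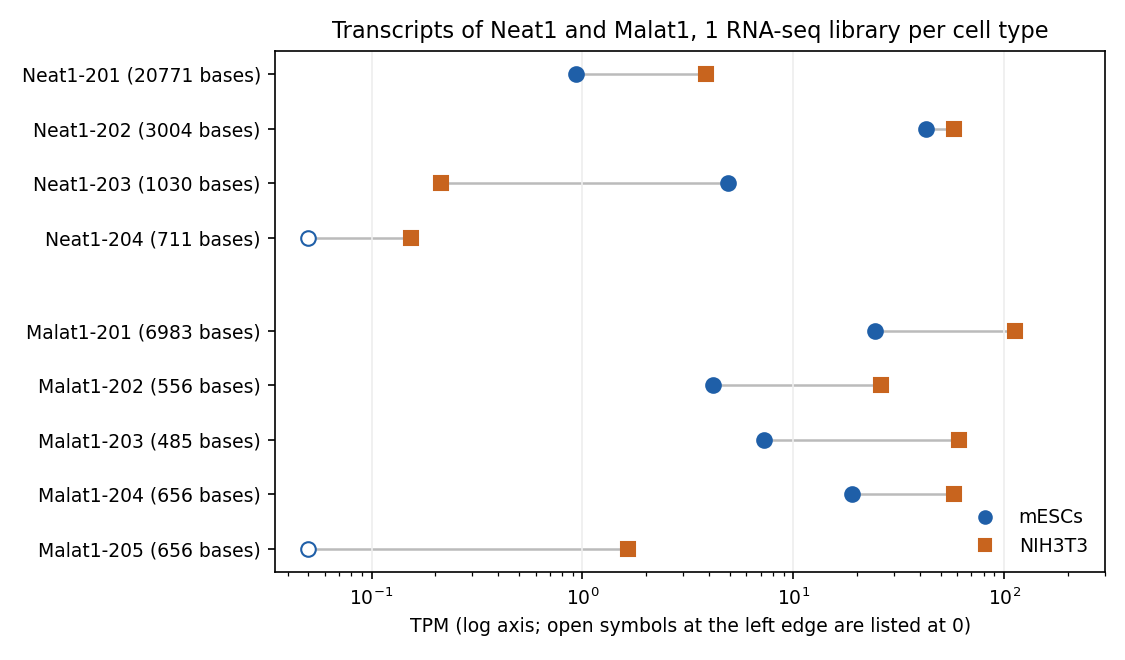
TPM of each transcript of Neat1 and Malat1 on a log axis, with the mESC library as blue circles and the NIH3T3 library as orange squares; open circles at the edge are listed at 0. Of the 9 transcripts, Neat1-203 alone has its higher value in mESCs, and the symbols of the short Neat1-202 (42.7 and 58.1) lie closer together than those of the long Neat1-201 (0.929 and 3.84).

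Marker genes followed the labels of the libraries. The mESC markers (Pou5f1, Sox2, Nanog, Esrrb, Zfp42, Dppa5a, Tdgf1) were higher in mESCs in 7 of 7, with a summed TPM of 6517 against 0.993, and the fibroblast markers were higher in NIH3T3 cells in 8 of 8, at 84.6 against 2818. Most of the fibroblast sum in mESCs was Fn1, at 75.7. Estimated counts totalled 26400407 in mESCs and 28849497 in NIH3T3 cells. The lists hold no read numbers, which leaves the ChIP-seq depth unknown, so a fold enrichment is read against its own list and not between libraries.

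Peaks of all 7 lists met both genes, counting a peak that overlapped the gene or 1 kb on either side. A peak of every list was found at 0.949% of 55413 annotated genes, and at 3.65% of the 10560 annotated genes with a TPM of at least 1 in both libraries. Of the 10560, a Ctr9 peak was found at 66.0% in mESCs and 38.5% in NIH3T3 cells, an H3K27ac peak at 71.2% and 88.0%, and a peak of NELFA at 17.9%, Ser5p at 21.1% and Ser2p at 9.89%. Counting the gene body alone, Neat1 still met all 7, and Malat1 lacked H3K27ac in mESCs. In the 90 kb window, mESCs had 20 Ctr9, 12 H3K27ac, 5 NELFA, 13 Ser5p and 7 Ser2p peaks, and NIH3T3 cells had 12 Ctr9 and 23 H3K27ac peaks. Fewer Ctr9 peaks covered more sequence in NIH3T3 cells, 48.4 kb against 37.2 kb in mESCs.

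**Figure D2:**
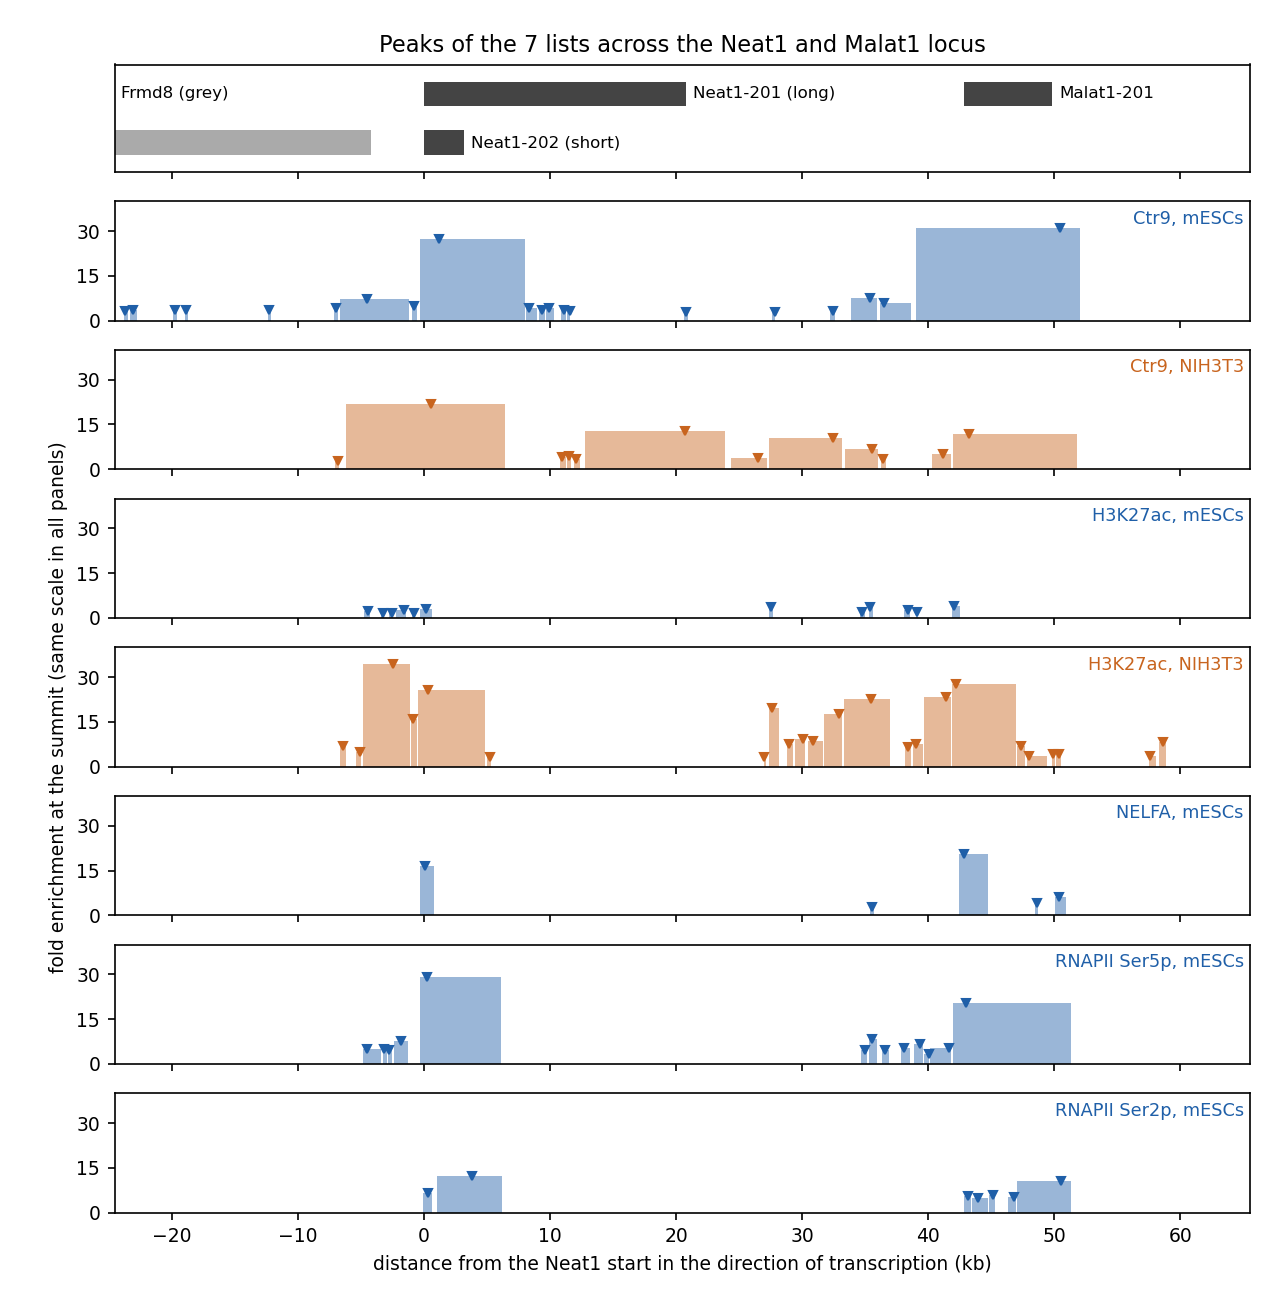
Peaks of the 7 lists along the locus, from 5.78 to 5.87 Mb, with the distance from the Neat1 start in kb in the direction of transcription on the horizontal axis, and fold enrichment on the vertical axis. Each block spans 1 peak, its height is the fold enrichment at the summit on a common scale, and the triangle marks the summit; blue is mESCs and orange NIH3T3 cells. Broad Ctr9 blocks cover the Neat1 start and Malat1 in both cell types, and a further block over the long Neat1 end, 11154 bases wide, is present in NIH3T3 cells.

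Neat1 carried a broad stretch of Ctr9 at its start in both cell types. Fold enrichment here is the fragment pileup at the summit over the local background. In mESCs the Ctr9 peak was 8260 bases wide with a fold enrichment of 27.4, rank 51 of 44748, and its summit lay 1191 bases past the start. In NIH3T3 cells it was 12613 bases wide with a fold enrichment of 22.0, rank 36 of 22016, and its summit lay 556 bases past the start. The NIH3T3 peak reached 6220 bases upstream of the start, whereas the mESC peak began 279 bases upstream and separate peaks followed further out. On the far side, the peaks ran 7.98 kb into the gene in mESCs and 6.39 kb in NIH3T3 cells, 4809 and 3221 bases beyond the end of the short form.

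The RNAPII Ser5p and Ser2p peaks over Neat1 in mESCs ended at almost the same place. The Ser5p peak was 6428 bases wide, with a fold enrichment of 29.2 (rank 6 of 4490), a summit 257 bases past the start and an edge 6.10 kb into the gene. The main Ser2p peak was 5177 bases wide, the widest of all 1675 in its list, with a fold enrichment of 12.2, a summit 3817 bases past the start and an edge at 6.18 kb. Both thus ended about 3 kb beyond the short form, 2930 bases for Ser5p and 3009 for Ser2p. The strongest summits lay 71 bases past the start for NELFA, 257 for Ser5p, 1191 for Ctr9 and 3817 for Ser2p. That order holds for the strongest summits only, since a second Ser2p peak with a fold enrichment of 6.41 had its summit at 336 bases, and the Ctr9 summit nearest to the start lay 770 bases upstream. The NELFA peak had a fold enrichment of 16.6 and was 1063 bases wide, and no other NELFA peak lay at Neat1.

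H3K27ac at the Neat1 start was low by fold in the mESC list and high by fold in the NIH3T3 list. In mESCs the peak at the start had a fold enrichment of 2.84 over 978 bases, and 12.2% of the list's peaks were weaker. By other measures the same peak stood high in its list, with a −log10 q of 44.3 above that of 84.1% and a width above that of 93.8%. In NIH3T3 cells it had a fold enrichment of 25.5 over 5265 bases, with 95.1% of the list's peaks weaker and a width of rank 15 of 34241. The strongest H3K27ac peak of the locus lay upstream in NIH3T3 cells, 2490 bases before the Neat1 start, with a fold enrichment of 34.3. It stood above 98.7% of its list. The mESC list had a peak with its summit 67 bases from that summit and a fold enrichment of 1.72, above 0.113% of the list. None of the 12 mESC peaks of H3K27ac in the window was above the median fold enrichment of its list, and 14 of the 23 NIH3T3 peaks were above theirs.

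An SE, a dense cluster of enhancers, from the study's mESC list covers the Neat1 start. Of its 11133 bases, 9597 lie past the start, inside Neat1. Ctr9 peaks covered 92.6% of the SE in mESCs and 71.2% in NIH3T3 cells, and RNAPII Ser5p 60.4% and Ser2p 53.1% in mESCs. H3K27ac peaks covered 12.0% of it in mESCs and 58.1% in NIH3T3 cells. The strongest Ctr9, Ser5p and Ser2p peaks in the SE are those at Neat1 given above. Binding at an enhancer and binding through transcription of Neat1 thus cannot be told apart here.

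The part of Neat1 that only the long form uses differed in its Ctr9 cover. Ctr9 peaks covered 43.0% of its 17599 bases in mESCs and 71.4% in NIH3T3 cells, while the part shared with the short form was covered fully in both. In mESCs, no Ctr9 peak lay in the stretch from 11.6 to 20.6 kb past the start, 9047 bases, of which NIH3T3 peaks covered 94.0%. In NIH3T3 cells the longest stretch without a peak lay nearer the start, from 6.39 to 10.8 kb, and mESC peaks covered 82.3% of its 4361 bases. Over the whole gene the share was 51.7% in mESCs and 75.7% in NIH3T3 cells. Among genes with a Ctr9 peak, 84.0% had a smaller share covered than Neat1 in mESCs and 87.6% in NIH3T3 cells. The share depends on gene length. Among 5519 genes of 10386 to 41542 bases with a TPM of at least 1 in either library, 96.4% and 98.9% had a smaller share. The medians there were 1.58% and 0%. For the NIH3T3 share minus the mESC share, 24.0 points at Neat1, 98.2% of these genes had a lower value.

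Both Ctr9 lists had a peak at the long end itself, a strong one in NIH3T3 cells and a weak one in mESCs. The NIH3T3 peak there was 11154 bases wide with a fold enrichment of 12.9, and its summit lay 69 bases before the annotated end, at base 51 of the Neat1 end printed above, between the U-rich stretches. The mESC peak was 305 bases wide with a fold enrichment of 2.95, and its summit lay 15 bases past the end, at base 135, in the small RNA. It was above 12.9% of its list by fold, where the NIH3T3 peak was above 99.1% of its own. The −log10 q of the mESC peak, 4.82, falls under a limit of 5. The summits were 84 bases apart. A Ctr9 summit within 100 bases of the annotated end was found at 2.9% of 4062 genes with a Ctr9 peak and a TPM of at least 1 in both libraries in NIH3T3 cells, and at 3.52% of 6969 in mESCs. No NELFA, Ser5p or Ser2p peak of mESCs lay within 2 kb of this end, and no H3K27ac peak of either cell type did.

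**Figure D3:**
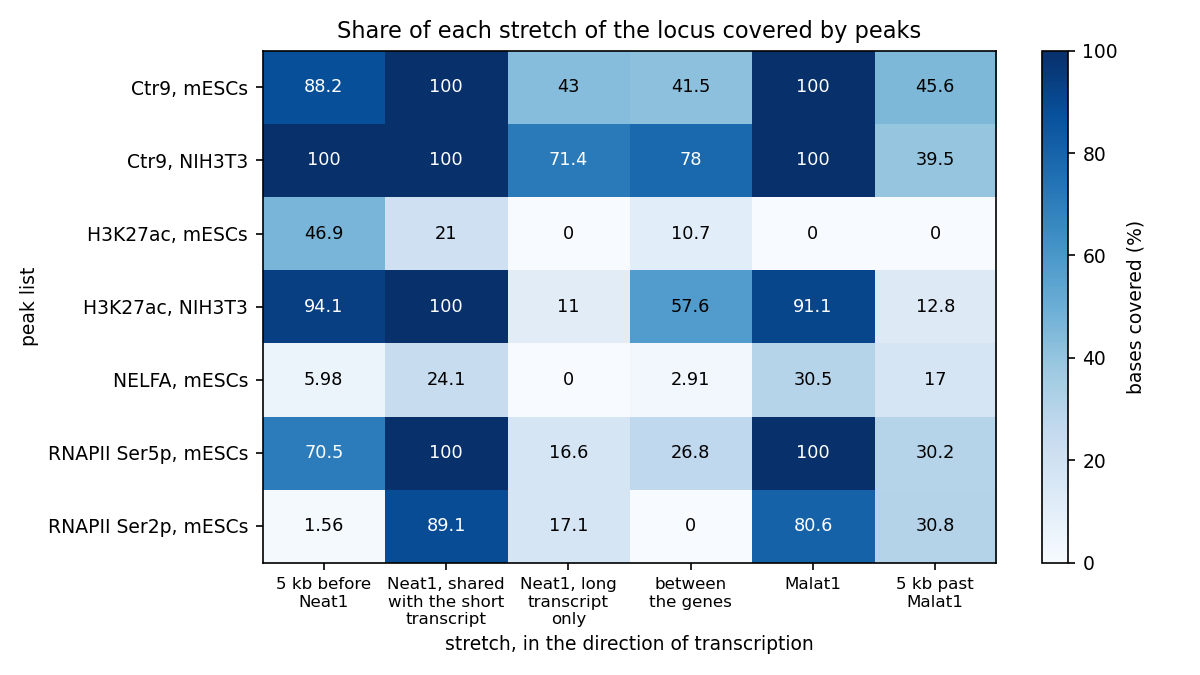
Percent of bases covered by peaks of each list (rows) in 6 stretches of the locus (columns, in the direction of transcription), with the value printed in each cell. In the long-only part of Neat1, Ctr9 covered 43.0% in mESCs and 71.4% in NIH3T3 cells, while H3K27ac covered 91.1% of Malat1 in NIH3T3 cells and 0% in mESCs.

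Between the genes, NIH3T3 cells again had the wider cover, 78.0% of 22035 bases for Ctr9 against 41.5% in mESCs, and 57.6% for H3K27ac against 10.7%. The lists themselves differ in extent, since over chromosome 19 Ctr9 peaks covered 1.39% in NIH3T3 cells and 1.68% in mESCs, and H3K27ac peaks 1.45% and 0.46%. How far the extent of the lists sets the H3K27ac differences at this locus was not tested. The printed intergenic site lies 7229 to 7446 bases upstream of the Malat1 start. Ctr9 fold enrichment there was 7.39 in mESCs, above 94.7% of its list, and 6.75 in NIH3T3 cells, above 93.2%. H3K27ac was 3.58 in mESCs, above 38.4% of its list, and 22.6 in NIH3T3 cells, above 93.0%. RNAPII Ser5p was 8.34, above 90.1%, and NELFA was 2.90, above 1.26% of its list. A second place, 10325 bases upstream of Malat1, had Ctr9 summits 1 base apart in both cell types. The fold enrichment was 3.27 in mESCs, above 26.1% of the list, and 10.6 in NIH3T3 cells, above 98.5%. Across the window, 3 of the 20 mESC Ctr9 summits had an NIH3T3 summit within 100 bases, 15%, against 4.72% of all 44748. For H3K27ac it was 6 of 12, 50%, against 32.3% of all 19417.

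At Malat1, Ctr9 covered the whole gene in both cell types, and the listed summits lay at opposite ends. Each list gives 1 peak over the gene with 1 summit, so a second high point within either peak would not show. In mESCs the peak was 13060 bases wide, rank 30 of 44748, with a fold enrichment of 30.9 (rank 33). Its summit lay at chr19:5795019, 671 bases past the annotated end and 7653 bases past the start. In NIH3T3 cells the peak was 9831 bases wide with a fold enrichment of 11.8, rank 250 of 22016, and its summit lay 430 bases past the start. Genes with a TPM of at least 1 in both libraries were searched for a Ctr9 summit within 2000 bases past the end. One was found at 50.6% of them in mESCs and at 20.4% in NIH3T3 cells. Any summit counted, weak or strong, and how often the strongest one lies there was not counted.

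In mESCs, 3 lists had a summit just past the Malat1 end. The strongest Ser2p summit lay 770 bases past it with a fold enrichment of 10.8 and a width of 4262, the strongest Ctr9 summit at 671, and a separate NELFA summit at 591 with a fold enrichment of 6.09. These 3 summits fell within 179 bases. Counted from the first base of mascRNA, they lay at 1061 for Ser2p, 962 for Ctr9 and 882 for NELFA. A NELFA summit within 2000 bases past the end was found at 1.26% of 10560 genes, and a Ser2p summit at 6.22%. Neat1 had neither past its long end.

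The Malat1 start held NELFA and Ser5p in mESCs. The NELFA peak had a fold enrichment of 20.6, rank 17 of 1980, over 2276 bases, and its summit lay 44 bases past the start, at base 295 of the printed promoter. There were 1895 genes with a NELFA peak and a TPM of at least 1 in both libraries. Of these, 38.9% had a NELFA summit within 100 bases of the start, Neat1 among them. The Ser5p peak had a fold enrichment of 20.4 with its summit at 199 bases, and at 9331 bases it was the widest of all 4490 in its list, ending 1512 bases past the gene. Ser2p reached Malat1 as 5 peaks that together covered 80.6% of it.

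H3K27ac differed at Malat1 as well. In mESCs the nearest peak lay 742 bases before the start with a fold enrichment of 3.89, and no base of the gene was covered. In NIH3T3 cells a peak of 5055 bases, rank 21 of 34241 by width, had its summit 570 bases before the start with a fold enrichment of 27.7, and 91.1% of the gene was covered. The mESC peak was low in its list by fold, above 47.6%, but not by q, since its −log10 q of 61.6 was above that of 89.4%.

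**Figure D4:**
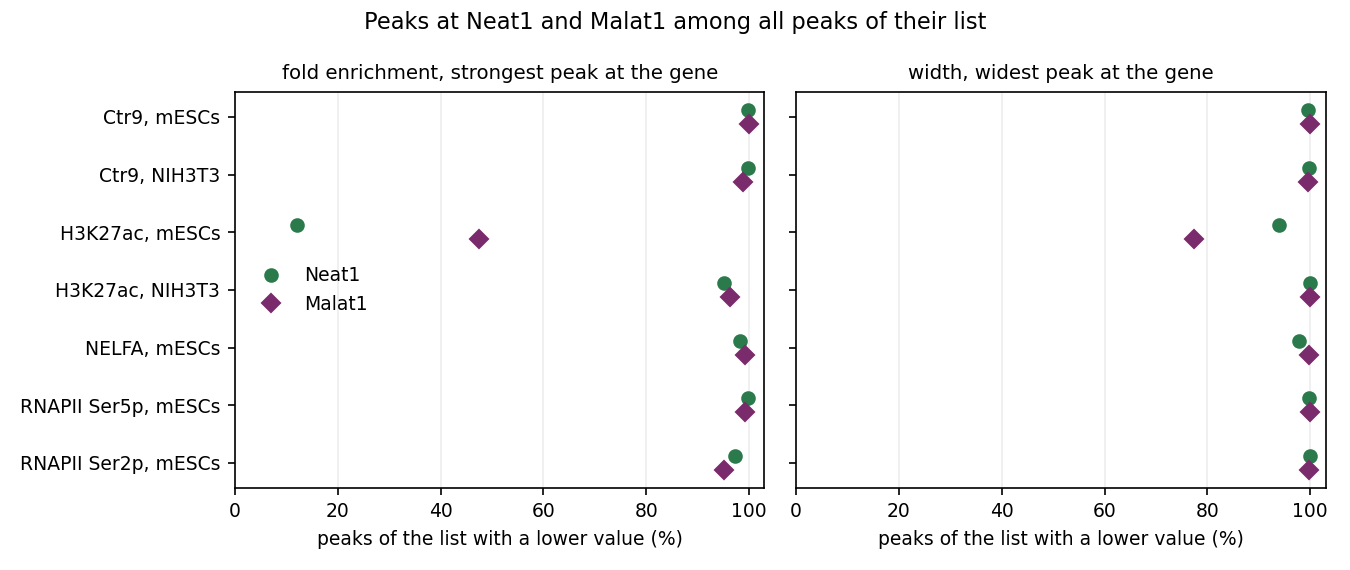
Percent of all peaks of each list with a lower fold enrichment than the strongest peak at Neat1 (circles) or Malat1 (diamonds), left, and narrower than the widest peak there, right. For H3K27ac in mESCs the points fall to 12.2% and 47.6% in fold, and in the other lists they lie above 95%.

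This standing sets the strongest of several peaks against all single peaks. Set against the strongest peak of each gene with a peak, the share below was smaller in NIH3T3 cells, at 84.0% for H3K27ac at Neat1, 87.9% for H3K27ac at Malat1 and 91.3% for Ctr9 at Malat1. In mESCs it was 89.0% for Ser2p at Malat1, and 2.44% and 23.4% for H3K27ac at Neat1 and Malat1.

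Other annotated genes of the window were listed at a lower TPM than Neat1 and Malat1. Frmd8, the protein-coding gene upstream of Neat1 on the same strand, had a TPM of 7.72 in mESCs against 13.7 in NIH3T3 cells, and Frmd8os, opposite to it, was listed at 0 and at 0.616. Gm27694 and Gm37376 in Malat1, Gm27533, Gm27505 and Gm28006 in Neat1, and the small RNA Gm27702 were listed at 0 in both. All of these but Gm37376 and Gm27702 lie inside Malat1 or Neat1 on the same strand. Their reads cannot be told from those of the longer gene, so a TPM of 0 does not show that their RNA was absent. Frmd8 shared the upstream Ctr9 peaks, 7.22 in mESCs, and had no NELFA or Ser2p peak.

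Few genes for proteins of both nuclear bodies were past 2-fold. Of 19 paraspeckle protein genes, 0 were past 2-fold with the higher level in NIH3T3 cells and 1 with the higher level in mESCs. Over all genes these shares were 20.6% and 24.9%. The 1 paraspeckle gene was Pspc1, a core paraspeckle protein, with a mESC TPM of 156 against 27.2 in NIH3T3 cells. Its partners Sfpq and Nono, which bind Neat1 and are needed for the long form, were at 171 and 197 and at 316 and 324. Of 16 nuclear speckle genes, 0 were past 2-fold higher in NIH3T3 cells and 1, Srrm1, in mESCs (84.8 and 40.1), beside the same shares. The median log2 ratios were −0.06 for paraspeckles and −0.29 for speckles, beside −0.14 over all 14691 genes.

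Among 11 genes for the processing of RNA ends, 4 were past 2-fold with the higher level in mESCs and 0 with the higher level in NIH3T3 cells, beside 24.9% and 20.6% of all genes. Of the RNase P subunits, Rpp25 was at 69.0 in mESCs and listed at 0 in NIH3T3 cells, Rpp21 at 22.4 and 9.31, and Rpp40 at 19.8 and 7.30. The other subunits listed were not past 2-fold, with Pop1 at 13.4 and 15.1, Rpp30 at 34.8 and 41.8, and Rpp38 at 17.2 and 9.64. Rpph1, the RNA of RNase P, was at 7.03 and 0.289 and is 1 of the 4. The RNA selection of the libraries is not stated, so its ratio is that of the library and may not be that of the cell. Nudt21 and Cpsf6, parts of the cleavage factor that acts at the poly(A) site of the short form, were not past 2-fold, at 86.5 and 46.5 for Nudt21 and at 31.6 and 22.3 for Cpsf6. Elac2, which trims tRNA ends, was at 28.1 and 17.9.

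Other long noncoding RNAs were past 2-fold in both directions. Of 21 with a TPM of at least 1 in either library, 8 were past 2-fold with the higher level in NIH3T3 cells and 5 in mESCs, beside 20.6% and 24.9% of all genes, so the count in mESCs was near that over all genes. The highest in NIH3T3 cells were Gas5 (178 and 932), Snhg1 (67.1 and 143) and Meg3 (37.4 and 81.8). The highest in mESCs were Gm26917 (150 and 67.8), Lncenc1 (138 and 0.354) and Tsix (9.07 and listed at 0). Rpph1 is also 1 of the 5, so it counts in this list and in that for RNA ends.

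**Figure D5:**
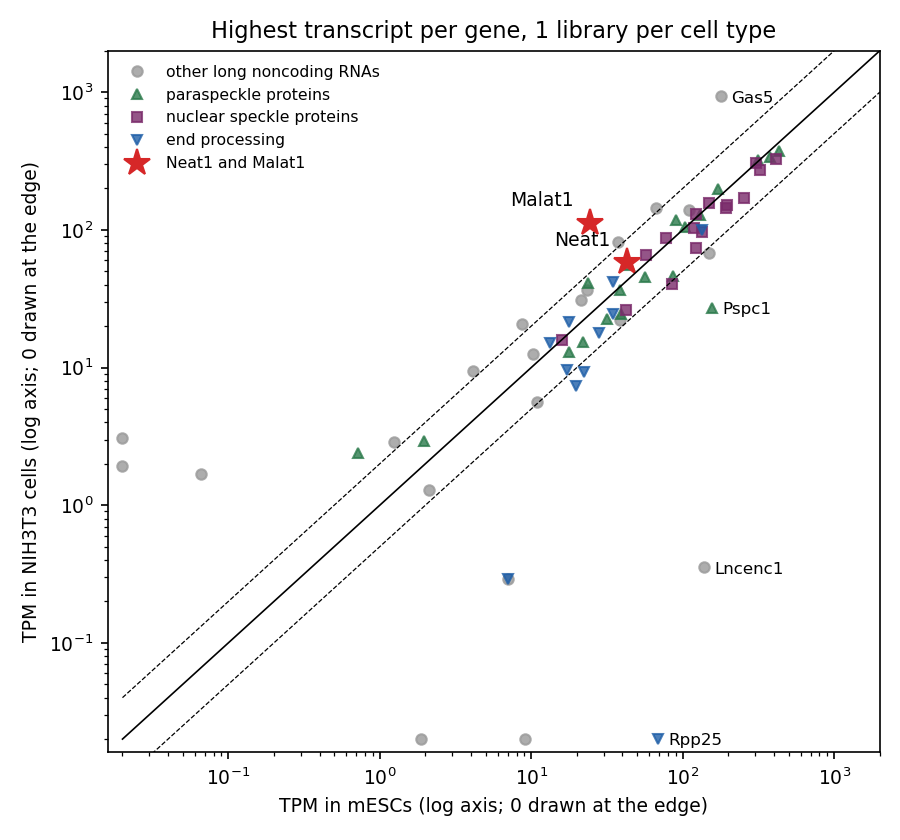
TPM of the highest transcript in mESCs (horizontal) and NIH3T3 cells (vertical), both on log axes, for Neat1 and Malat1 (stars) and the members of 4 gene lists with a TPM of at least 1 in either library; the solid line is equality and the dashed lines a TPM ratio of 2 without the added 1. Malat1 lies above the upper dashed line at 24.5 and 112, Neat1 between the lines at 42.7 and 58.1, and Pspc1 below at 156 and 27.2.

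Each gene was the nearest to the other in a likeness drawn from the kinds of value the pair was picked on. It is a description and no support for the pairing. A peak of every list was found at 0.949% of 55413 annotated genes, so most genes lacked at least 1 of the 7 fold enrichments. Over 9 values, the 2 TPM and the 7 highest fold enrichments on log2 scales, Malat1 was the nearest of 54372 genes to Neat1 at a Euclidean distance of 1.65, and the reverse held too. No peak met both genes. Next to Neat1 came Rabggtb at 1.68 and Mrps18b at 1.75, hardly further, and next to Malat1 came Zfp36l1 at 1.90 and Snhg1 at 2.03.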

How the data were processed

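ChIP-seq reads were mapped to mm10 by the authors with bowtie2 2.3.5.1. They dropped reads in the ENCODE blacklist and ran macs2 2.2.6 on each library at a q-value of 0.01. In the deposited peak lists, fold enrichment is the ratio of pileup to local background at the summit. The lists also give, as deposited, −log10 values of p and q there, and a whole-number score derived from −log10 q, which was not used. TPM and estimated counts per transcript are as deposited, made by the authors with kallisto 0.46.1 against the transcripts of GENCODE M19. RNA-seq libraries were strand-specific per the labels; the strand setting of kallisto and its bias correction are not given in the sources used here. The labels name total RNA and the study's text calls the assay mRNA sequencing, and neither names poly(A) selection or depletion of ribosomal RNA. Where strand was not used, reads of a gene and its antisense partner cannot be told apart.

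Values were computed with NumPy 2.4.6, SciPy 1.17.1, pandas 2.3.3 and Biopython 1.88 under Python 3.11.15, and drawn with Matplotlib 3.10.9. Gene positions came from GENCODE M21, of whose 55413 genes 98.1% were in the RNA-seq tables, and sequences from RefSeq for GRCm38.p6, the mm10 build. The gene level was the highest transcript, as in the study. A peak was at a gene when it overlapped the body or 1 kb on each side. Genes were called past 2-fold on TPM plus 1, with a TPM of at least 1 in either library. Ratio intervals are exact conditional binomial and count intervals exact Poisson, at 95%, from estimated counts rounded to whole numbers. The median ratio of the 10581 genes with a TPM of at least 1 in both libraries was 0.942, a log2 shift of −0.09. Overlap and distance code was tested on 400 simulated peaks and 200 genes, and 7 of 7 checks passed.

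Members, gene lists and tests were chosen with earlier results of these data known. Genes named are both members, every annotated gene of the window, up to 3 genes per list and direction by TPM among those past 2-fold, list members needed for their role, and the nearest genes over 9 values. Markers of primitive endoderm, trophoblast and neural cells were summed too, at a TPM of 9.24, 1.75 and 36.1 in mESCs and 28.5, 0.132 and 9.30 in NIH3T3 cells. The 3 input libraries were not used here.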

Additional observations from a re-analysis of the deposited data

How the results depend on the processing

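Each of the 128 values recomputed with another choice came from the same libraries, and 1 library per group leaves the spread between cultures unknown. The ratio of Neat1, 1.36 as reported, was 1.28 with TPM summed over transcripts, 1.64 with estimated counts scaled to library size and 1.44 with scaling to the median ratio, and that of Malat1 was 4.87 with the same scaling. The ratio of the long Neat1 transcript, tried after the values were seen like all of its alternatives, was 2.51 with a pseudocount of 1, since its mESC level lies below 1. Neat1-202 held 84.3% of the gene's estimated counts in mESCs and 68.8% in NIH3T3 cells, and Malat1-201 held 93.9% and 94.2%. For both Neat1 forms, kallisto listed an effective length above the length in both libraries, which lowers their TPM. It was 23110 in mESCs and 22916 in NIH3T3 cells for Neat1-201, of 20771 bases. For Neat1-202, of 3004 bases, it was 3384 and 3351.

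With summits in either gene or within 1 kb, the window held 9 Ctr9 peaks, 3 H3K27ac peaks and 2 Ser5p peaks in mESCs, and 6 Ctr9 and 8 H3K27ac peaks in NIH3T3 cells. With a −log10 q of at least 5, NELFA had 3 peaks, and those lost include the one at the intergenic site. The Ctr9 share of Neat1 in mESCs was 49.9% with that limit on q, 50.6% with 1 kb on each side and 45.7% with the mESC list held to the 22016 peaks of highest q, as many as in NIH3T3 cells, an alternative added after seeing the data. With 1 kb on each side, the NIH3T3 share was 77.9% at Neat1 and 98.6% at Malat1. In the same order for the limit on q and the equal number of peaks, the mESC share of the long-only part was 40.9% and 35.9%, and that between the genes 39.7% and 38.0%, so at Neat1, in its long-only part and between the genes NIH3T3 cells had the higher share with each of these choices; at Malat1, with 1 kb on each side, mESCs had it, at 100%. The Ctr9 summit nearest to the Neat1 start in mESCs lay at −770 bases, upstream, in place of the strongest one at 1191.

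A peak of every list met 0.507% of genes by body alone, 1.34% with 5 kb downstream and 1.85% of protein-coding genes. Past 1.5-fold, 2 paraspeckle genes were higher in NIH3T3 cells and 3 in mESCs, as were 3 speckle genes. With a pseudocount of 0.1 or median scaling, 1 paraspeckle gene was higher in NIH3T3 cells, and with median scaling 0 speckle genes were higher in mESCs. The shares over all genes were not recomputed with these choices, so these counts cannot be called many or few. No paired analysis was possible because each group held 1 library. Of the 128 values, 67 were kept, by a rule that differed with the kind of value. Ratios, shares and percentiles were held to a binomial interval that takes each read, base, peak or gene as independent. Bases of 1 peak are not independent, so for covered shares it is no measure of error. Counts were held to 1.5 times, and summit distances had to be identical.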
